A study of Homo sapiens with 15 samples.

Results

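The integrated stress response regulators described here are 10 genes: ATF4, ATF3, ATF5, DDIT3, NUPR1, CEBPB, CEBPG, TRIB3, PPP1R15A and DDIT4. They were found on the arrays by gene name, as 14 probes on 23 spots per array, of 41000 gene probes on 43376 spots and 30992 gene names in all. The genes were chosen by their log2 ratios of treated over control cells on these same arrays and by the differences of those ratios between treatments. Their values are therefore given as a description. No p-value is given for them, and counts of those that pass the thresholds of the fit describe the genes chosen and test nothing.

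The cells were MDA-MB231, a mesenchymal-like line of triple-negative breast cancer, and their mRNA was compared on 15 two-color Agilent whole human genome arrays. On 5 arrays the treated channel (Cy5) held shCtBP2 cells, which carry a stable short hairpin RNA against CtBP2, an NADH-binding transcriptional co-repressor. On 5 arrays it held cells exposed for 24 h to HIPP and on 5 arrays cells exposed for 24 h to P4, small molecules made as CtBP inhibitors from phenylpyruvate, HIPP being its oxime and P4 its hydrazone. The control channel (Cy3) held untreated MDA-MB231 cells according to the labels on every array, whereas the methods of the study set shCtBP2 cells against scrambled control cells. The labels give no dose for the arrays, so the 2 compounds are set side by side here without a known match in dose. All groups are 1 cell line, nothing in the labels says that the 5 replicates of a treatment came from separate cultures, and the dyes were not exchanged, so a dye effect of a gene stays in each ratio.

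The integrated stress response lowers general protein synthesis when 1 of 4 kinases phosphorylates the translation factor eIF2, while the mRNA of the transcription factor ATF4 is translated more. ATF4 then acts on genes of amino acid supply and on further regulators: the transcription factors ATF3, ATF5 and DDIT3 (CHOP), the C/EBP factors CEBPB and CEBPG, which pair with ATF4 or bind related sites, the chromatin protein NUPR1, the pseudokinase TRIB3, which binds ATF4 and AKT, the phosphatase subunit PPP1R15A (GADD34), which removes the phosphate from eIF2, and DDIT4 (REDD1), an inhibitor of mTORC1. ATF4 is regulated largely in translation, which mRNA ratios do not measure.

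The share of gene spots well above background was 65.2 to 77.5% in the treated channel and 64.9 to 81.0% in the control channel, and 0 spots were saturated. CTBP2, the target of the hairpin, was lower on all 5 shCtBP2 arrays, at a mean log2 ratio of -0.41 ± 0.11 (SD, n = 5), but did not pass the test (limma, adjusted p = 0.0595). By real-time PCR and western blot the paper reports significantly less CtBP2 mRNA and protein in these cells than in scrambled control cells. With HIPP the mean of CTBP2 was 0.57 ± 0.36 and with P4 0.17 ± 0.35. Of the markers of the line, VIM, CD44, KRT8, KRT18 and EGFR were above background in the control channel of all 15 arrays and PGR and CDH1 on 0, whereas EPCAM was above background on 15 and ESR1 on 11. Of markers of other cell types, PTPRC and ALB were above background on 0 arrays and PECAM1 and CD3E on 15 and 14. CDH5, COL1A1 and DCN were above background on 5, 6 and 3. Of the 4 slides, the first carried P4 replicates 1 to 4 and was scanned on another day than the rest, the second HIPP replicates 1 to 3 beside P4 replicate 5, the third HIPP replicates 4 and 5 beside shCtBP2 replicates 1 and 2, and slide 4 the remaining shCtBP2 arrays.

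Each probe is a 60-base oligonucleotide, and ATF4, ATF3, CEBPB and TRIB3 each have 2. The probes below lie in coding sequence and are shown because the first 3 gave lower ratios than the other probe of their gene, and because the last, of PPP1R15A, spans 775 bases of the genome and so joins exons across an intron. Positions are those of the array annotation, build hg17, and all 4 are on the plus strand: chr22:38242375-38242434 for ATF4, chr20:48241320-48241379 for CEBPB, chr20:324856-324915 for TRIB3 and chr19:54069939-54070713 for PPP1R15A. They read, 5′ to 3′:
ATF4: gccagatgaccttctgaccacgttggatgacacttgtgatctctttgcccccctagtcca
CEBPB: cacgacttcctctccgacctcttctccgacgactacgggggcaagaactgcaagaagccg
TRIB3: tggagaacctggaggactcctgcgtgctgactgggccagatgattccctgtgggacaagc
PPP1R15A: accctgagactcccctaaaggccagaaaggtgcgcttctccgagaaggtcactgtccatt

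Both compounds came with higher levels of 9 of the 10 regulators on every array, while the remaining one, ATF5, had arrays on both sides of 0 in every treatment. The highest mean ratios were those of NUPR1, 7.44-fold with HIPP and 7.22-fold with P4. The median of the 10 mean log2 ratios was 1.55 with HIPP and 1.39 with P4 (all genes tested, 0.08 and 0.11), against 0.31 in shCtBP2 cells (all genes tested, 0.04). In shCtBP2 cells 7 of the 10 were higher on all 5 arrays, and DDIT4 and NUPR1 had the highest means. The share of all genes that were higher on all 5 arrays was not determined, so nothing is read from these counts.

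A gene is called here when its adjusted p (limma, Benjamini-Hochberg over 27582 genes) is under 0.05 and its fold change reaches the threshold of the study's methods, 1.5 in shCtBP2 cells, 2.5 after HIPP and 1.8 after P4. Of the 10 regulators, 7 were called higher with HIPP, 9 with P4 and 2 in shCtBP2 cells, and 0 were called lower. Over all genes, 3.43% were called higher and 3.61% lower with HIPP, 4.29% and 4.17% with P4, and 3.34% and 3.23% in shCtBP2 cells. Since these contrasts chose the genes, nothing is read from their counts. The filter on variability left ATF5 and PPP1R15A out of the test in shCtBP2 cells, and all 10 were tested with HIPP and P4. The thresholds differ between treatments, and at 1.5-fold for all of them the counts were 9, 9 and 2, where 16.1% of all genes were called higher and 16.4% lower with HIPP and 8.98% and 8.53% with P4.

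**Figure D1:**
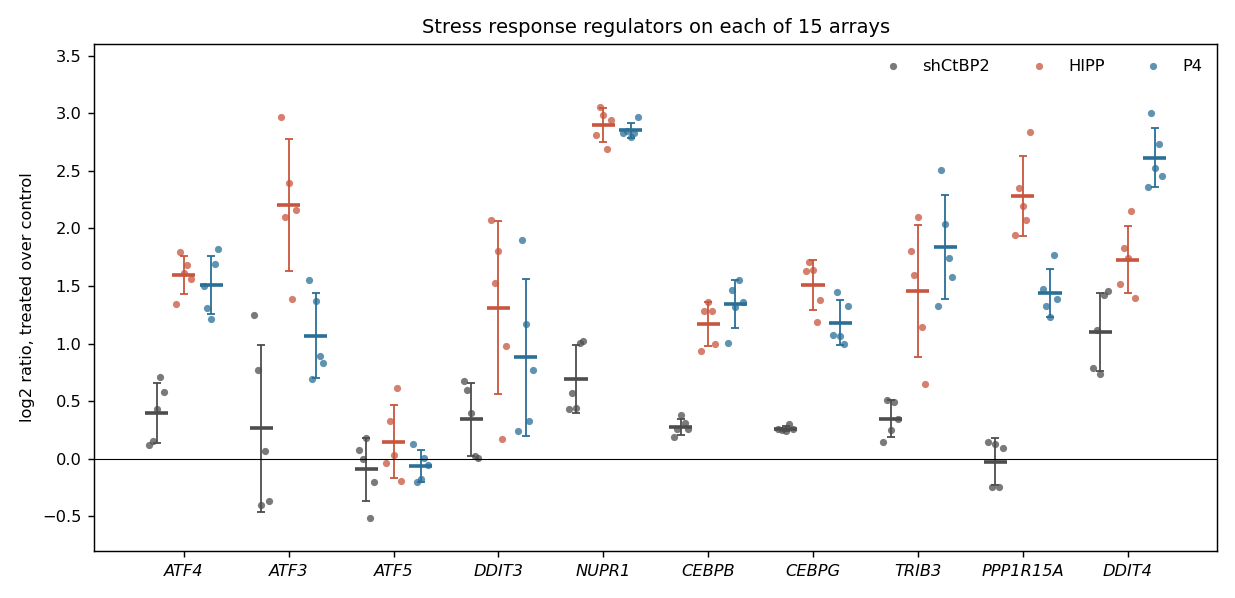
Log2 ratio of treated over control (y axis) of the 10 regulators (x axis) on the 5 arrays of shCtBP2 cells, HIPP and P4. Points are arrays, horizontal bars are means and error bars are SD (n = 5). All HIPP and P4 points of NUPR1 lie between 2.69 and 3.06, and those of ATF5 lie on both sides of 0.

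ATF4, the central transcription factor of the response, had log2 ratios of 1.34, 1.79, 1.61, 1.68 and 1.56 on HIPP replicates 1 to 5. With P4 they were 1.5, 1.30, 1.22, 1.69 and 1.82. In shCtBP2 cells they were 0.12, 0.15, 0.43, 0.71 and 0.58. Every HIPP and P4 array was above every shCtBP2 array, and the HIPP and P4 arrays overlapped. The means were 1.60 ± 0.17 (3.03-fold), 1.51 ± 0.25 (2.84-fold) and 0.40 ± 0.26 (1.32-fold; SD, n = 5 each).

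ATF3, a transcription factor of stressed cells that can repress its own and other stress genes, varied more between arrays. Its log2 ratios were 2.97, 2.10, 2.39, 1.39 and 2.16 with HIPP and 1.55, 0.69, 1.37, 0.89 and 0.83 with P4. In shCtBP2 cells they were 1.25, 0.77, -0.40, 0.06 and -0.37. One of its 2 probes, at chr1:209181232-209181291, was well above background on 0 of 5 shCtBP2 arrays in either channel. On the HIPP arrays it was above background on 3 of 5 in the treated and 1 of 5 in the control channel, and on the P4 arrays on 1 and 0 of 5. The other probe, at chr1:209182251-209182310, was above background in both channels of all arrays and gave means of 2.5 ± 0.45 with HIPP, 1.66 ± 0.20 with P4 and 0.46 ± 0.45 in shCtBP2 cells. On this probe alone the shCtBP2 arrays were at 1.13, -0.07, 0.19, 0.56 and 0.47. With normexp correction and loess normalization the ATF3 means were 1.03 with HIPP and 0.73 with P4, both under their thresholds. With slide as a block the fitted ATF3 values, set to the average of the 4 slides, were 1.13 in shCtBP2 cells and 0.24 with P4. ATF3 was then called in shCtBP2 cells and not with P4. The fitted P4 value is below every P4 array, and both values average in the probe at background.

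ATF5, a factor that can be translated under stress in the way of ATF4, was above background on all 15 arrays in both channels. Its log2 ratios were -0.03, 0.33, 0.04, 0.61 and -0.19 with HIPP, 0.13, -0.20, -0.18, 0.01 and -0.05 with P4, and 0.08, 0.00, 0.18, -0.51 and -0.21 in shCtBP2 cells. No treatment had all arrays on 1 side of 0, and the means lay between -0.09 and 0.15.

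DDIT3, a C/EBP-related factor tied to cell death under prolonged stress, had log2 ratios of 2.07, 1.52 and 1.8 on the HIPP arrays of slide 2 and 0.17 and 0.98 on those of slide 3. With P4 they were 0.24, 1.90, 1.17, 0.32 and 0.77, and in shCtBP2 cells 0.68, 0.60, 0.40, 0.02 and 0.01. All were above 0, but the 3 treatments overlapped. The means were 1.31 ± 0.75, 0.88 ± 0.68 and 0.34 ± 0.31 (n = 5). The P4 mean was 1.84-fold, just over its threshold, and the HIPP mean, 2.48-fold, just under its own. Without P4 replicate 2 or 3, DDIT3 was no longer called with P4, and without HIPP replicate 4 or 5 it was called with HIPP. The P4 call was also lost with normexp and loess, with median-centered signals, with the test that the methods name, with the P4 arrays fitted alone and with slide as a block. With slide as a block the fitted DDIT3 values, set to the average of the 4 slides, were 0.07 with P4 and 1.16 in shCtBP2 cells. They are not means of arrays: the first is below every P4 array and the second above every shCtBP2 array. Its probe spans chr12:56197467-56197793 on the minus strand, 327 bases for 60 bases of probe.

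NUPR1, a small chromatin-associated stress protein that acts with other stress factors, was tightly grouped. Its log2 ratios were 2.81, 3.06, 2.98, 2.69 and 2.94 with HIPP and 2.83, 2.85, 2.80, 2.83 and 2.96 with P4. In shCtBP2 cells they were 0.43, 0.57, 0.44, 1.00 and 1.02, all above 0 and all below every compound-treated array. The means were 2.90 ± 0.15, 2.85 ± 0.07 and 0.69 ± 0.30 (n = 5). With normexp correction and loess normalization from the raw signals the means were 1.96, 2.25 and 0.24, the last under its threshold.

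CEBPB and CEBPG, partners of ATF4 in the C/EBP family, were more evenly spaced. CEBPB had log2 ratios of 0.94, 1.29, 1.36, 1.28 and 1.00 with HIPP, 1.01, 1.47, 1.32, 1.55 and 1.36 with P4, and 0.19, 0.26, 0.38, 0.31 and 0.26 in shCtBP2 cells. CEBPG had 1.63, 1.71, 1.64, 1.19 and 1.38 with HIPP, 1.07, 1.45, 1.06, 1.00 and 1.33 with P4, and 0.26, 0.25, 0.24, 0.30 and 0.25 in shCtBP2 cells. For both genes all compound-treated arrays lay above all shCtBP2 arrays, and the 5 shCtBP2 values of CEBPG had the smallest SD of any regulator and treatment, 0.02. CEBPB was 2.25-fold higher with HIPP, under the threshold of 2.5 (its brightest probe alone, at log2 1.60, passed), and 2.53-fold higher with P4.

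TRIB3, which binds ATF4 and limits its output, had log2 ratios of 1.8, 1.59, 2.10, 1.14 and 0.65 with HIPP. With P4 they were 1.33, 2.51, 2.04, 1.74 and 1.58, and in shCtBP2 cells 0.14, 0.51, 0.25, 0.50 and 0.35. The HIPP and P4 arrays overlapped, and the lowest HIPP values were both on slide 3. TRIB3 was not called with HIPP without replicate 3, nor with normexp and loess, at 1.26.

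PPP1R15A, the subunit that brings protein phosphatase 1 to eIF2, and DDIT4, the mTORC1 inhibitor, were the regulators whose HIPP and P4 arrays did not overlap, PPP1R15A being higher with HIPP and DDIT4 with P4. Over all genes, 3.27% were higher with HIPP and 4.88% higher with P4 without overlap, and nothing is read from the count. PPP1R15A had log2 ratios of 1.94, 2.35, 2.19, 2.07 and 2.84 with HIPP and 1.47, 1.32, 1.23, 1.77 and 1.39 with P4. In shCtBP2 cells it lay at 0.14, -0.25, 0.13, -0.24 and 0.09, on both sides of 0. DDIT4 had 1.52, 1.83, 1.75, 2.15 and 1.40 with HIPP and 2.36, 3.00, 2.52, 2.73 and 2.45 with P4. It was also higher on every shCtBP2 array, at 0.79, 1.12, 0.73, 1.42 and 1.45, a mean of 2.15-fold, the highest of the 10 in these cells.

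Set against each other, the 2 compounds differed most for 3 regulators. ATF3 was 1.13 (log2) higher with HIPP than with P4 (SE 0.30), PPP1R15A 0.84 higher (SE 0.18), and the difference of DDIT4, higher with P4, was -0.88 (SE 0.17). These 3 were called at 1.5-fold, 2 higher and 1 lower, where 3.67% of all genes were called higher and 5.19% lower, and as these differences took part in the choice of genes, nothing is read from the count. The differences of the other 7 lay between -0.38 for TRIB3 and 0.43 for DDIT3, and that of NUPR1 was 0.04 (SE 0.07). The call of ATF3 was lost when any 1 of 10 arrays (shCtBP2 2 or 4, HIPP 1, 2, 3 or 5, P4 2, 3, 4 or 5) was left out, and also with normexp and loess, at 0.30, with median-centered signals, with the value table of the series and with probes well above background. With its brighter probe alone, above background on all arrays, the ATF3 difference was 0.84 and was called. Slide 2, which held 3 HIPP arrays and 1 P4 array, gave differences of 1.65 for ATF3, 0.77 for PPP1R15A and -0.76 for DDIT4. The ATF3 value averages in its probe at background. On the brighter ATF3 probe HIPP replicates 1 to 3 were at 2.94, 2.37 and 2.61, and P4 replicate 5 at 1.93. With slide as a block, 0 of the 10 were called in this difference, whose fit then rests on that 1 P4 array.

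Compared with shCtBP2 cells, the mean ratios of all 10 regulators were higher with either compound. With HIPP, 7 of the 8 tested were called higher, where 9.99% of all genes were, and with P4 6 of 8, where 4.77% were. These differences also took part in the choice, so nothing is read from the counts. The arrays of the 2 treatments did not overlap, with all compound-treated arrays higher, for 7 regulators in each case, among them PPP1R15A, which the filter left out of the test. Over all genes measured on every array of both treatments, this was so for 10% with HIPP and 7.13% with P4. ATF3 overlapped between P4 and shCtBP2, but on its brighter probe the lowest P4 array was at 1.44 and the highest shCtBP2 array at 1.13. With that probe alone ATF3 was called in P4 minus shCtBP2. The differences between HIPP and shCtBP2 ran from 0.24 for ATF5 to 2.30 for PPP1R15A, and those between P4 and shCtBP2 from 0.03 for ATF5 to 2.16 for NUPR1. Without shCtBP2 replicate 1 or 3 or HIPP replicate 2 or 4, DDIT4 was not called between HIPP and shCtBP2, nor with normexp and loess. With median-centered signals DDIT4, CEBPB and CEBPG were not called between HIPP and shCtBP2, nor was CEBPG between P4 and shCtBP2. Slide 3 held 2 HIPP and 2 shCtBP2 arrays, and within it NUPR1 differed by 2.31, PPP1R15A by 2.51, ATF4 by 1.49, CEBPG by 1.03, CEBPB by 0.91 and DDIT4 by 0.82. On the same slide TRIB3 differed by 0.57, against 1.11 over all arrays, and DDIT3 by -0.06, against 0.97. ATF3 differed by 0.76 there, against 1.94 over all arrays, but both values average in the probe at background. Its brighter probe was at 1.803 and 2.799 on HIPP replicates 4 and 5, and at 1.132 and -0.069 on shCtBP2 replicates 1 and 2. Over all arrays the brighter probe had means of 2.503 with HIPP and 0.456 in shCtBP2 cells. No slide held both P4 and shCtBP2 arrays. With slide as a block, ATF4, CEBPB, CEBPG and NUPR1 were called for HIPP. No share over all genes is given for that fit, and nothing is read from these calls. The P4 part of the fit is tied to the other treatments through 1 P4 array, so its calls are not given. In it the P4 differences of ATF3 and DDIT3 were below 0, at -0.89 and -1.09, and the ATF3 value averages in the probe at background.

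For the 4 regulators with 2 probes, the probe farther along the transcript gave the higher ratio on most arrays. Without ATF3, whose upstream probe was at background, this was so on 15 of 15 gene and array pairs with HIPP, 13 of 15 with P4 and 13 of 15 in shCtBP2 cells. The upstream probe was also the dimmer one, with median control signals on the shCtBP2 arrays of 5466 against 50890 for ATF4, 85.7 against 7049 for CEBPB and 80.1 against 5968 for TRIB3, so position and signal level cannot be told apart. For ATF4, the upstream probe, shown above, gave 1.09 ± 0.10 with HIPP and 1.06 ± 0.23 with P4, and the probe 702 bases downstream, at chr22:38243077-38243136, gave 2.11 ± 0.26 and 1.95 ± 0.33. The downstream ATF4 probe was higher than the upstream probe on all 15 arrays, also in shCtBP2 cells, at 0.73 against 0.07. For TRIB3, the upstream probe gave 0.69 ± 0.85 with HIPP and 1.23 ± 0.74 with P4, against 2.23 ± 0.45 and 2.44 ± 0.21 for the probe 1251 bases downstream. The upstream TRIB3 probe was at -0.07 and -0.26 on the HIPP arrays of slide 3, where the downstream probe was at 2.36 and 1.56. For CEBPB, the upstream probe gave 0.74 ± 0.19 with HIPP and the downstream probe, read from 10 spots per array, 1.60 ± 0.28. With P4 they gave 1.07 ± 0.25 and 1.61 ± 0.40, and the downstream one was higher on 3 of 5 arrays. In shCtBP2 cells the means of the 2 CEBPB probes were 0.21 and 0.35 and the downstream one was higher on 3 of 5 arrays. When the brightest probe of each gene replaced the mean of its probes, ATF4 and TRIB3 were also called in shCtBP2 cells and CEBPB with HIPP.

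**Figure D2:**
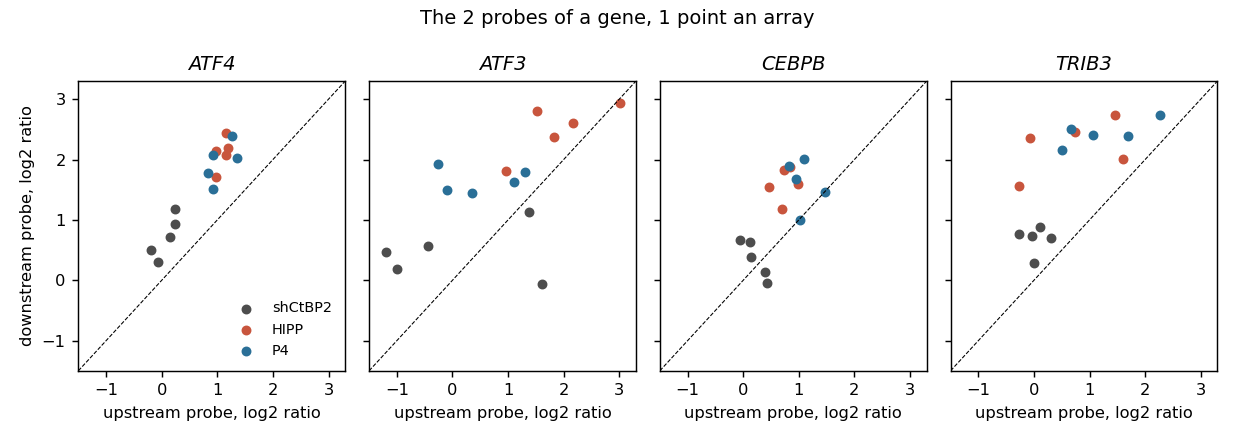
Log2 ratio of treated over control from the upstream probe (x axis) and the downstream probe (y axis) of ATF4, ATF3, CEBPB and TRIB3, 1 point per array, colored by treatment. The dashed line marks equal ratios. All 15 ATF4 points and all 15 TRIB3 points lie above it.

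The ratio of NUPR1 rested on control channels that were not alike. Scaled to the 75th percentile of the channel, the log2 signal of its probe, at chr16:28456322-28456381, was -4.34 ± 0.06 in the control channel of the shCtBP2 arrays. It was -2.63 ± 0.57 in the controls of the HIPP arrays and -2.94 ± 0.39 in those of the P4 arrays, and the groups of controls did not overlap between shCtBP2 and either compound. On slide 3 the controls of shCtBP2 replicates 1 and 2 were at -4.34 and -4.26 and those of HIPP replicates 4 and 5 at -3.41 and -3.06. The treated channel of NUPR1 was at 0.26 ± 0.68 with HIPP, -0.10 ± 0.41 with P4 and -3.66 ± 0.25 in shCtBP2 cells. The control channels of the other 5 regulators with 1 probe were closer together. For DDIT4 their means were 1.14, 1.13 and 1.25 on the shCtBP2, HIPP and P4 arrays, for CEBPG 2.13, 2.07 and 2.03, and for ATF5 -0.91, -0.91 and -1.01. These scaled signals compare arrays for 1 probe and carry no normalization between arrays beyond the percentile.

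**Figure D3:**
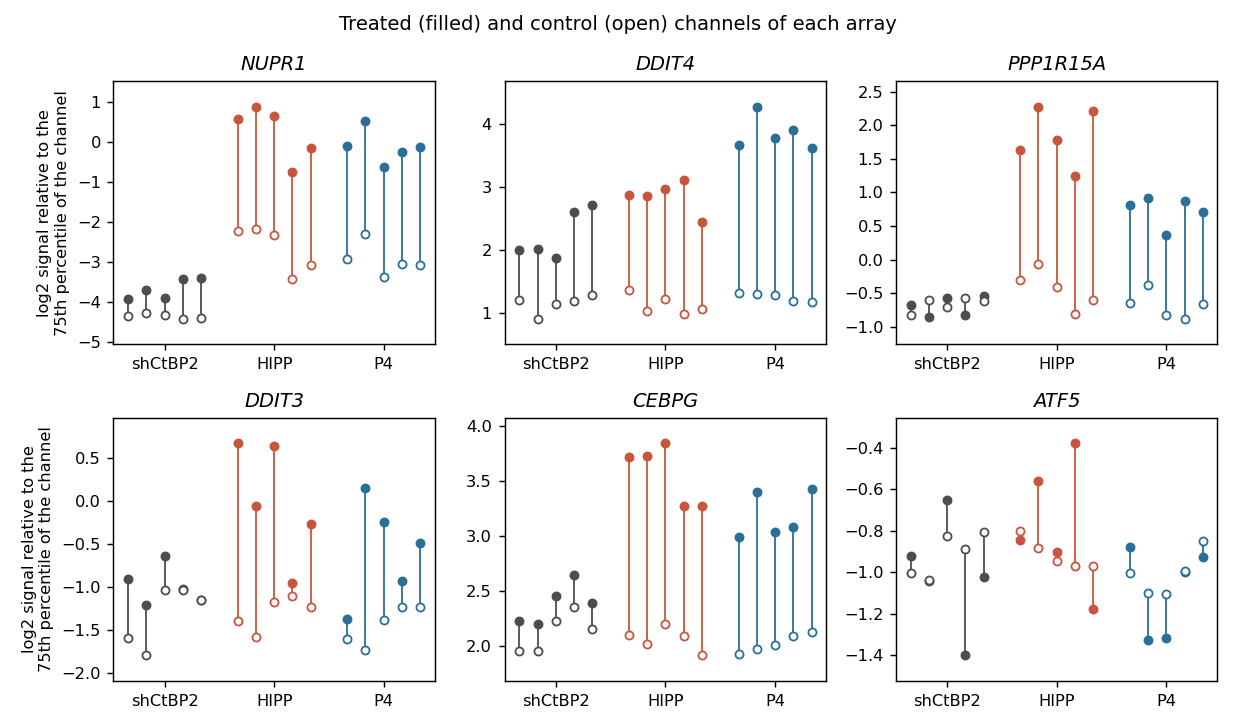
Log2 signal relative to the 75th percentile of the channel (y axis) of the treated (filled) and control (open) channels on each array (x axis, replicates 1 to 5 from left to right in each treatment) for 6 regulators with 1 probe. The open points of NUPR1 lie near -4.34 on the shCtBP2 arrays and between -3.41 and -2.15 on the others, and those of DDIT4 stay close to the same level.

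Upstream sequence was available for 9 of the 10 regulators, in 18 windows of 250 bases before an annotated start (RefSeq, GRCh38.p14). A pair of motifs was searched on both strands: the CARE-type element TGATGNAA, bound by ATF4 with C/EBP partners, and the cyclic AMP response element TGACGTCA. They were found in 2 and 1 of the 18 windows, against 3.14% and 1.65% of all 35116 windows. The matches are shown with the motif in capitals, since CEBPG and ATF3 are regulators with a CARE-type match and PPP1R15A the regulator with the other. They lie at chr19:33374060-33374089 for CEBPG, 42 bases before the second of its annotated starts, at chr1:212565205-212565234 for ATF3, 191 bases before a start, and, for PPP1R15A, 58 bases before the start in the window chr19:48872171-48872420, all on the plus strand:
CEBPG: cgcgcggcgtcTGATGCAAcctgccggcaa
ATF3: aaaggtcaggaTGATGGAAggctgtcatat
PPP1R15A: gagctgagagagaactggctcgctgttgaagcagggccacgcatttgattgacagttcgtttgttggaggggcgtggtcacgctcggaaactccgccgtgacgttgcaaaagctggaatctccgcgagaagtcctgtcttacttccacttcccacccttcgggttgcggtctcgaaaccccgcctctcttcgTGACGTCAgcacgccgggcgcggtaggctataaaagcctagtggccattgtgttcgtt
These are matches of letters only, and a window without a match says nothing about the factors.

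Known target genes of ATF4 and DDIT3 were called higher with both compounds. Of 50 listed genes 46 were tested with HIPP, and 13 were called higher (3.43% of all genes) and 0 lower, with a median log2 ratio of 0.68 against 0.08 over all genes tested. With P4, 45 were tested and 22 were called higher (4.29% of all genes) and 0 lower, with a median of 0.84 against 0.11. In shCtBP2 cells 39 were tested, 3 were called higher (3.34% of all genes) and 0 lower, and the median, 0.04, was that of all genes. At 1.5-fold for all treatments 26 were higher (16.1% of all genes) and 1, IARS1, lower (16.4%) with HIPP, 31 higher with P4 (8.98%) and 3 higher in shCtBP2 cells. In the difference from shCtBP2 cells, also at 1.5-fold, 19 of 36 target genes tested were called higher with HIPP (9.99% of all genes) and 23 of 34 with P4 (4.77%), and 0 lower with either.

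GDF15, a secreted stress cytokine, rose most, by 4.66 ± 0.60 (log2) with HIPP (adjusted p = 2.79e-09, limma) and 3.92 ± 0.54 with P4 (adjusted p = 5.69e-08, limma). VEGFA, an angiogenic factor, rose 4.20-fold with HIPP (log2 2.07 ± 0.23), and was at 1.47 with normexp and loess and 3.39 with its brightest probe, called in both cases. ALDH1L2, a mitochondrial folate enzyme, rose 4.16-fold with HIPP and 4.95-fold with P4. CTH, which makes cysteine by transsulfuration, rose 7.0-fold with P4 (log2 2.81 ± 0.23, adjusted p = 7.65e-10, limma). In shCtBP2 cells the 3 genes called were ALDH1L2, at 1.33 ± 0.49, CTH, at 0.98 ± 0.21, and CHAC1, a glutathione-degrading enzyme, at 0.64 ± 0.25 (adjusted p = 0.000126, 2.99e-05 and 0.0187, limma). CHAC1 was no longer called in these cells without shCtBP2 replicate 3, 4 or 5, nor with normexp and loess, median-centered signals, the test that the methods name or slide as a block. With normexp and loess ALDH1L2 was not called in any treatment, at 0.38 with HIPP, 0.81 with P4 and 0.36 in shCtBP2 cells, and with its brightest probe it was at 0.69 with HIPP and not called.

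In the difference HIPP minus P4, 6 of 41 target genes tested were called lower (5.19% of all genes) and 0 higher (3.67%), a comparison read from the same fit after the counts above were known. Among them PSAT1 and PHGDH, enzymes of serine synthesis, had log2 ratios of 0.67 and 0.21 with HIPP and 1.58 and 1.03 with P4, differences of -0.91 (SE 0.13) and -0.82 (SE 0.15; adjusted p = 0.000657 and 0.00307, limma). CTH differed by -0.81 (SE 0.15, adjusted p = 0.00299), and the others were IARS1, NARS1 and XPOT, of tRNA charging and export, at -0.95, -0.64 and -1.0. With slide as a block 0 target genes were called in this difference. PHGDH was not called without HIPP replicate 3 or 4, NARS1 without HIPP replicate 4 or with normexp and loess or median-centered signals, and XPOT with normexp and loess or its brightest probe.

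**Figure D4:**
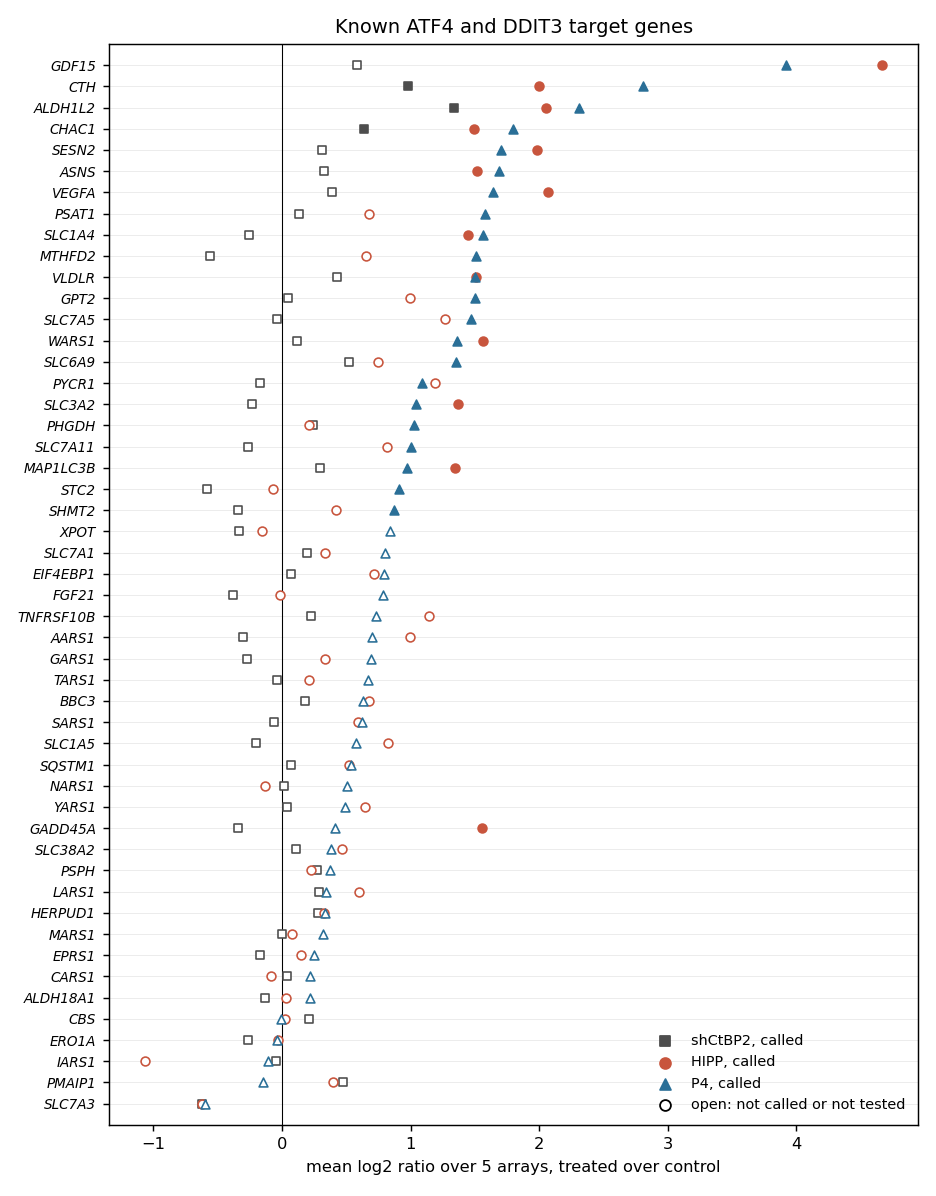
Mean log2 ratio of treated over control over 5 arrays (x axis) of 50 known ATF4 and DDIT3 target genes (y axis, ordered by P4) in each of the 3 treatments. Filled symbols are called and open ones not called or not tested. GDF15 is farthest right, and most shCtBP2 symbols lie near 0.

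Of the 4 eIF2 kinases, the sensors at the head of the pathway, 0 were called in any treatment, where 3.23 to 4.29% of all genes were called in each direction, so that 0 of 4 is near that share. Their mean log2 ratios were between -0.51 for EIF2AK4 (GCN2) and 1.14 for EIF2AK2 (PKR) with HIPP and between -0.39 and 0.32 with P4. With HIPP, EIF2AK2 and EIF2AK4 passed the adjusted threshold (adjusted p = 0.00114 and 0.000782, limma) but not the fold threshold. EIF2AK4 did the same with P4, at -0.38 (adjusted p = 0.0114, limma). Of 14 genes of eIF2, eIF2B and the eIF2 phosphatases 0 were called, against 3.43% higher and 3.61% lower of all genes with HIPP and 4.29% and 4.17% with P4, shares that 0 of so few genes lies close to, with a median of -0.63 over the 14 tested with HIPP and -0.51 over the 12 tested with P4. With HIPP all 14 passed the adjusted threshold at smaller folds, 11 lower and 3 higher, where 23.9% of all genes were lower and 24.9% higher by that threshold alone. Among them were EIF2S2 (the beta subunit of eIF2) at -1.21 ± 0.29, PPP1CC (a catalytic subunit of protein phosphatase 1) at -1.02 ± 0.18, EIF2B2 at -1.01 ± 0.19 and DNAJC3 (an inhibitor of the kinases) at 1.30 ± 0.17. With P4, 9 were lower and 2 higher by the adjusted p (limma) alone, as were 14.8% and 17.1% of all genes. Of those that were higher, PPP1R15B, the constitutive counterpart of PPP1R15A, was at 0.79 ± 0.26 with HIPP and 0.84 ± 0.35 with P4. At 1.5-fold for all treatments, 8 were lower and 3 higher with HIPP (16.4% and 16.1% of all genes), 5 and 1 with P4 (8.53% and 8.98%) and 0 in shCtBP2 cells.

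Of 19 other ATF, CREB and C/EBP genes, 4 of 17 tested were called with P4 (4.29% of all genes), 2 of 17 with HIPP (3.43%) and 1 of 14 in shCtBP2 cells (3.34%), all higher. The last is close to the share over all genes. JDP2, a repressor that binds the same sites as ATF3 and AP-1, rose 3.86-fold with P4 (log2 1.95 ± 0.35, adjusted p = 1.84e-07, limma) and 1.53-fold in shCtBP2 cells, where the call was lost without replicate 5, with normexp and loess and with slide as a block. With HIPP JDP2 was 2.49-fold higher (adjusted p = 8.57e-07, limma), just under the threshold of 2.5. CREB5 rose 2.98-fold with HIPP and 2.18-fold with P4, CREB3L4 2.71-fold with HIPP and CREB3L3 1.84-fold with P4. The call of CREB3L3 was lost without P4 replicate 1 or 4, with its brightest probe, with the test that the methods name, with slide as a block and, at 0.23, with normexp and loess, as was that of CREB3L4, at 1.16. With its brightest probe CREB5 was at 0.63 with HIPP and 0.78 with P4 and not called, and its HIPP call was also lost with normexp and loess and its P4 call with median-centered signals.

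Of 19 endoplasmic reticulum chaperones and XBP1 branch genes, which mark the other arms of the unfolded protein response, 0 were called in any treatment, which for 14 or 15 genes tested is near the share over all genes (3.34% to 4.29% higher). Their median log2 ratio was 0.36 over the 15 tested with HIPP and 0.13 over the 14 tested with P4. HSPA5 (BiP), the main chaperone of that compartment, was at -0.19 ± 0.28 with HIPP and -0.19 ± 0.27 with P4. Of 10 mitochondrial chaperones and proteases, 8 tested with each compound and 7 in shCtBP2 cells, 0 were called, again near the share over all genes, with medians of -0.19 with HIPP and -0.16 with P4. By limma at any fold change, 7 genes of the endoplasmic reticulum list were higher with HIPP (24.9% of all genes), 4 with P4 (17.1%) and 1 in shCtBP2 cells (6.59%), and 0 were lower. Of the mitochondrial list 1 was higher and 4 lower (23.9% of all genes) with HIPP, 3 and 3 (14.8% lower) with P4 and 0 and 2 (6.95% lower) in shCtBP2 cells.

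Of 12 mTORC1 regulators and relatives of TRIB3 and DDIT4, TXNIP, a thioredoxin-binding protein, rose 3.14-fold with HIPP (log2 1.65 ± 0.81, adjusted p = 8.54e-05, limma) and 2.15-fold with P4. The P4 call was lost without replicate 2 and, at a fitted value of 0.51, with slide as a block. TRIB1, a paralog of TRIB3, rose 1.91-fold with P4, a call lost without replicate 1, at a log2 ratio of 0.79, with normexp and loess and with slide as a block. TRIB2, the other paralog, fell by 1.45 on the log2 scale with HIPP (SD 0.58, adjusted p = 1.09e-05, limma), a call lost without replicate 2, with slide as a block and, at -0.83, with normexp and loess. In shCtBP2 cells 0 of the 9 genes tested were called, which is near the share over all genes, 3.34% higher and 3.23% lower. With HIPP 1 of 11 was called higher (3.43% of all genes) and 1 lower (3.61%), and with P4 2 of 9 higher (4.29%).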

How the data were processed

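The authors scanned 15 two-color arrays and deposited Feature Extraction (version 9.5.3.1) files whose signal intensities are corrected for background and dye (lowess), with surrogate values for spots not above background, and a value table of log10 ratios of Cy5 over Cy3, which matched the scanner files' own log10 ratios within 0.00499 on every array and whose median was 0. Here log2 of Cy5 over Cy3 of the deposited intensities was taken for each spot, 78 to 265 flagged spots per array were left out, and spots, then probes of a gene, were averaged. Of 41000 probes, 23434 were named by accession, 2317 by symbol and 1040 by an older symbol (RefSeq genes, GRCh38.p14), and 14209 kept the name in the files. Genes measured on at least 3 of 5 arrays were kept, without the 11% of lowest interquartile range of each treatment, as the methods state. limma 3.58.1 (R 4.3.3) fitted all 15 arrays together, without covariates, and was tested on simulated data. The difference threshold was 1.5-fold.

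The 10 genes and 7 pathway lists were chosen with earlier results of these data known. From each list and treatment, at most the 3 called genes of largest change and of 1 direction on all 5 arrays are named, and the eIF2 kinases, the genes of the eIF2 list, HSPA5 and the genes of the HIPP minus P4 difference were named after their values were seen, as were the scaled channel signals, the motifs and the probe comparison. No p-value is given for a regulator. Replicate numbers were checked for pairing: deviations of same-numbered arrays correlated at 0.14 to 0.34 in 5 of 5 pairs of P4 and shCtBP2. The correlations were -0.01 to 0.46 between HIPP and P4 and 0.07 to 0.30 between HIPP and shCtBP2, where not every pair passed 0.1. Deviations of differently numbered arrays were not set beside these, so pairing by number was not established. p-values measure the spread between these arrays, whose number limits precision, and a dye effect or a shared control extract was not tested.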

Additional observations from a re-analysis of the deposited data

Results flagged for a closer look

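Among 50 sets of 5 arrays checked, TXNIP on HIPP replicate 4 was far from the others: its log2 ratio was 0.26, whereas the other 4 HIPP arrays were between 1.66 and 2.21. About 1 in 20 such sets is picked out by chance. None of the other sets checked, the 10 regulators in each treatment among them, had an array this far from the rest.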

How the results depend on the processing

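Among the called values none changed sign, while with slide as a block the uncalled differences P4 minus shCtBP2 of ATF3 and DDIT3 were -0.89 and -1.09 and that of DDIT3 in HIPP minus shCtBP2 was -0.06. In HIPP minus P4, uncalled differences also changed sign for TRIB3 (0.25, slide block), ATF4 (-0.24, slide block, and -0.14, median-centered signals) and NUPR1 (-0.29, normexp and loess, and -0.01, slide block). ATF3 in shCtBP2 went from 0.26 to -0.04 with median-centered signals. Values near 0 of ATF5 and PPP1R15A in shCtBP2 and of ATF5 in P4 minus shCtBP2 changed sign as well. Of 660 values of the 10 genes' ratios under alternatives 631 moved by less than the replicate SD and 29 by more, of 660 differences 634 and 26. Leaving out an array of another treatment cannot move a ratio, nor can an array of the third treatment move a difference. Many of the values were therefore unmoved by construction, and the totals are no measure of robustness. Of 513 values of named list genes 480 kept their call and 33 lost it. The causes were not tested. With normexp and loess, 269, 279 and 584 genes were called in shCtBP2, HIPP and P4 (main values 1813, 1944 and 2333). Of them 1 was a regulator in shCtBP2, and 1 and 6 were target genes in shCtBP2 and HIPP. For the lists other than the target genes, calls are summed over the treatments, so a gene called in more than 1 is counted each time. Such summed calls were 2 for ATF, CREB and C/EBP genes and 2 for mTORC1 list genes. By the methods' Student's test, 969 genes were called in shCtBP2 and 891 in P4. At any fold change, 3734, 13444 and 8800 genes and 8, 32 and 37 target genes were called. Summed calls were 3 for eIF2 kinases, 25 for eIF2 genes and 23 for ATF, CREB and C/EBP genes. They were 12 for endoplasmic reticulum, 13 for mitochondrial and 12 for mTORC1 list genes. At 1.5-fold for all, 8976 genes were called with HIPP and 4831 with P4, and 27 target genes with HIPP. Summed calls were 1 for kinases, 17 for eIF2 genes and 16 for ATF, CREB and C/EBP genes. They were 5 for endoplasmic reticulum, 2 for mitochondrial and 10 for mTORC1 list genes. With the brightest probe, 4 regulators and 5 target genes were called in shCtBP2, and summed calls were 1 for eIF2 and 3 for endoplasmic reticulum genes. With median-centered signals, 4 regulators were called in HIPP minus shCtBP2, and summed calls were 2 for endoplasmic reticulum genes. With slide as a block, 4 regulators were called in HIPP minus shCtBP2, while the differences with P4 then rest on 1 P4 array. Summed calls were 7 for eIF2, 2 for endoplasmic reticulum, 1 for mitochondrial and 1 for mTORC1 list genes.

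Leaving out 1 array gave 1300 to 1921, 1731 to 2232 and 2096 to 2805 genes in shCtBP2, HIPP and P4, and 2 to 2, 6 to 8 and 8 to 9 regulators. In the differences it gave 2 to 3 (HIPP minus P4), 6 to 8 (HIPP minus shCtBP2) and 6 to 7 (P4 minus shCtBP2). Target genes ranged from 2 to 4, 10 to 13 and 19 to 24. Summed calls were 0 to 0 for kinases, 0 to 1 for eIF2 genes and 5 to 10 for ATF, CREB and C/EBP genes. They were 0 to 1 for endoplasmic reticulum, 0 to 0 for mitochondrial and 3 to 5 for mTORC1 list genes. With the replicate block, 8 regulators were called in HIPP minus shCtBP2, DDIT3 added, and 6 in P4 minus shCtBP2, and no other call of a regulator changed. The labels do not say that the replicate numbers pair the arrays. As the regulators were chosen with these data, nothing is read from their counts in this section. Signal over background limits the ratio of the upstream ATF3 probe.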
